A study of Mus musculus with 8 samples.

Results

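The genes for the proteins of the cytosolic ribosome were followed across 8 mouse livers. Members were the entries of the count table whose symbol is that of a ribosomal protein of the large subunit (Rpl, with the stalk genes Rplp0, Rplp1 and Rplp2) or of the small subunit (Rps, with Rpsa), and symbols of processed pseudogenes and of the Rps6k kinases were left out. The rule took 86 of 25078 genes, 53 of the large and 33 of the small subunit. The 3 het-labelled livers came from males whose genotype label calls them Midn hemizygotes and whose titles say Het, and the 5 wild-type livers came from males with the wild-type label. All 8 animals were C57/BL6 mice that had eaten a diet high in fat, fructose and cholesterol for 25 weeks, and the study asked about midnolin, which in mouse and human cells brings nuclear proteins to the proteasome, in fatty liver disease. The Midn allele is a knockout in the whole body and not in the liver alone, and animals with 1 disrupted copy were used because homozygotes mostly died before birth. Age at the start of the diet, litters and batches are not described in the sources used here, so p-values measure only the spread between these samples.

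Each cytosolic ribosome joins a large subunit, which forms the peptide bond and holds the exit tunnel, to a small subunit, which decodes the mRNA. Their proteins are needed in equal amounts, and in mammals their mRNAs are abundant and mostly short, with introns that host small nucleolar RNAs in many of the genes. These mRNAs typically begin with a C followed by a run of pyrimidines, the terminal oligopyrimidine (TOP) tract, through which the kinase complex mTORC1 and the protein Larp1 control their translation and stability. In the liver they are known to respond to feeding and growth signals mainly at translation, which RNA sequencing does not record.

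The start of the transcript was therefore searched, and 8 of the members with a match are shown because they span the order of the differences described below. RefSeq promoter entries on GRCm38.p6 were found for 65 of the 86 members, with 77 annotated starts. The letters searched were a C at the annotated start base followed by at least 4 C or T, on the gene's own strand and at that position only. They stood at 14 of the 77 member starts, 18.2%, and at 823 of 32851 starts of all genes, 2.51%. Each window below holds 15 bases before the start and 15 from it, 5′ to 3′ on the gene's strand, and capitals mark the pyrimidine run from the start base.
Rps18: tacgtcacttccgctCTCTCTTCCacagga
Rpl38: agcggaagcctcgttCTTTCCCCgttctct
Rpl35: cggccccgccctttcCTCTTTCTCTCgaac
Rpl15: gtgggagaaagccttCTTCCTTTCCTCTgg
Rps6: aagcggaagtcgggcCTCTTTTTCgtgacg
Rps10: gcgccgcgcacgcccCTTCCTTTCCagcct
Rplp2: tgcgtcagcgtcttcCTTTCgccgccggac
Rpl28: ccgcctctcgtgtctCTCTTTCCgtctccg
The windows lie at chr17:33955651-33955680 (Rps18, minus strand), chr11:114668565-114668594 (Rpl38, plus strand), chr2:39005117-39005146 (Rpl35, minus strand), chr14:18270972-18271001 (Rpl15, minus strand), chr4:86857353-86857382 (Rps6, minus strand), chr17:27635230-27635259 (Rps10, minus strand), chr7:141447636-141447665 (Rplp2, plus strand) and chr7:4792950-4792979 (Rpl28, plus strand). The runs were 5 bases long in Rplp2, 8 in Rpl28 and Rpl38, 9 in Rps18 and Rps6, 10 in Rps10, 11 in Rpl35 and 13 in Rpl15. A match is a description of letters at 1 annotated start, and a start annotated a few bases away would not match.

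Libraries held 17508221 to 24916239 counts, and 14438 genes passed the filter on low counts. Midn stood at 60.4, 39.1 and 51.7 CPM (counts scaled to a common library total by TMM) in the het-labelled libraries and at 68.7, 39.8, 71.5, 41.7 and 29.3 CPM in wild-type libraries 1 to 5, so its level did not separate the genotypes. edgeR's quasi-likelihood test gave a log2 fold change of 0.00 (SE 0.30, adjusted p = 0.994), and the groups are therefore called here by their labels. Rpph1, the RNA of ribonuclease P, is not polyadenylated, and its share of counts set wild-type libraries 2, 4 and 5 apart. It was 0.229%, 0.399% and 0.288% in the het-labelled libraries and 0.331%, 0.899%, 0.304%, 0.673% and 1.06% in wild-type libraries 1 to 5. All libraries with a high Rpph1 share were wild type, so the share cannot be told apart from whatever else marks those livers, and each comparison is given against all 5 wild-type libraries and against each set of them. The livers expressed 8 of 8 hepatocyte markers, among them Alb and Apoa1. Their summed levels were 57599 to 92308 CPM in het-labelled and 50954 to 64883 CPM in wild-type libraries. Of 5 erythroid markers, 4 had no count in any library. The sources do not state how reads that match several genes were counted, so these counts of 0 do not show that the transcripts were absent. The 1 tested erythroid marker had 94.85, 57.1 and 78.2 CPM in het-labelled libraries against 43.3, 36.2, 29.6, 54.8 and 44.7 CPM in wild-type libraries. For this marker edgeR gave a log2 fold change of 0.88 (adjusted p = 0.259) against all 5 wild-type libraries.

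Ribosomal protein genes took 1.12%, 1.68% and 1.11% of all counts in het-labelled libraries 1 to 3, against 1.34%, 1.96%, 1.37%, 1.82% and 2.29% in wild-type libraries 1 to 5. The het-labelled mean was 1.30% ± 0.325 and the wild-type mean 1.76% ± 0.403 (SD, n = 3 and 5), and the groups overlapped. The 3 highest shares were those of wild-type libraries 2, 4 and 5, with a mean of 2.02%, and wild-type libraries 1 and 3, with a mean of 1.36%, lay between the low and the high het-labelled values. Fewer cells of a type and less RNA per cell cannot be told apart in such bulk samples. On the deposited RPKM scale, which divides by exon length, the members held 3.23%, 4.63% and 3.19% of the summed values in het-labelled libraries, against 4.02%, 5.27%, 4.24%, 4.82% and 5.49% in wild-type libraries. Rpph1 share left a gap between 0.399% in het-labelled library 2 and 0.673% in wild-type library 4. Member share did not part the libraries there, with 1.68% and 1.82% in the same libraries. No correlation across libraries was computed.

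**Figure D1:**
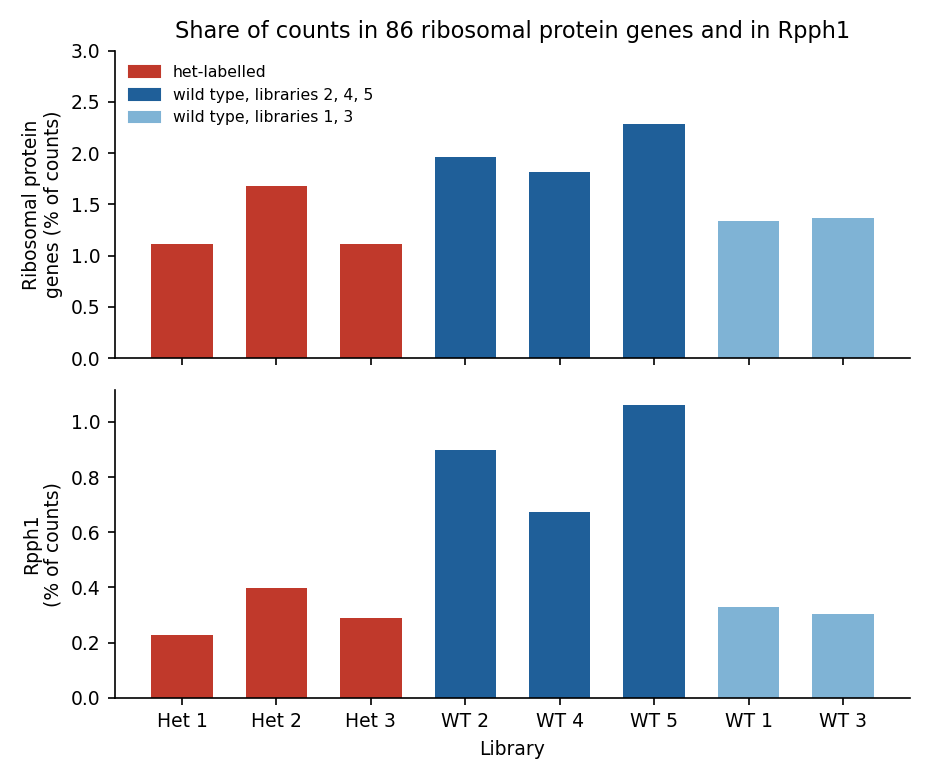
Share of all counts, in percent, held by the 86 ribosomal protein genes and by Rpph1 in each library, het-labelled libraries first. Wild-type libraries 2, 4 and 5 held the 3 highest values of both measures (1.82% to 2.29% and 0.673% to 1.06%).

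Most members were among the abundant mRNAs of these livers. Of the 86 members, 80 passed the filter on low counts, and their mean deposited RPKM ran from 0.69 to 684.8 with a median of 209.6, against a median of 5.52 RPKM over all 14438 tested genes. A mean over 50 RPKM was found in 74 of the 80. The highest level was that of Rplp1, a protein of the stalk that recruits elongation factors, at 444, 565 and 496 RPKM in het-labelled and 422, 896, 373, 974 and 1306 RPKM in wild-type libraries. Rps18 followed with 436, 569.7 and 480.0 RPKM in het-labelled and 395, 925, 371, 894 and 1353 RPKM in wild-type libraries. Rps14 averaged 653.4 RPKM and Rpl41, the shortest protein of the ribosome, 592.3 RPKM over the 8 libraries. The ranges of these 4 genes over the libraries overlap widely, so their order is not resolved. At the low end stood Rpl7l1, a paralogue of Rpl7, with 21.1, 21.7 and 18.9 RPKM in het-labelled and 18.6, 22.2, 17.6, 25.0 and 23.5 RPKM in wild-type libraries, and Rps4l, a paralogue of Rps4x, with a mean of 6.32 RPKM. Rpl32l, an entry on chromosome 10 that lies wholly within Map7 on the same strand, averaged 1.41 RPKM, and Rps27, whose level is uncertain for the overlap described next, averaged 0.69 RPKM.

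**Figure D2:**
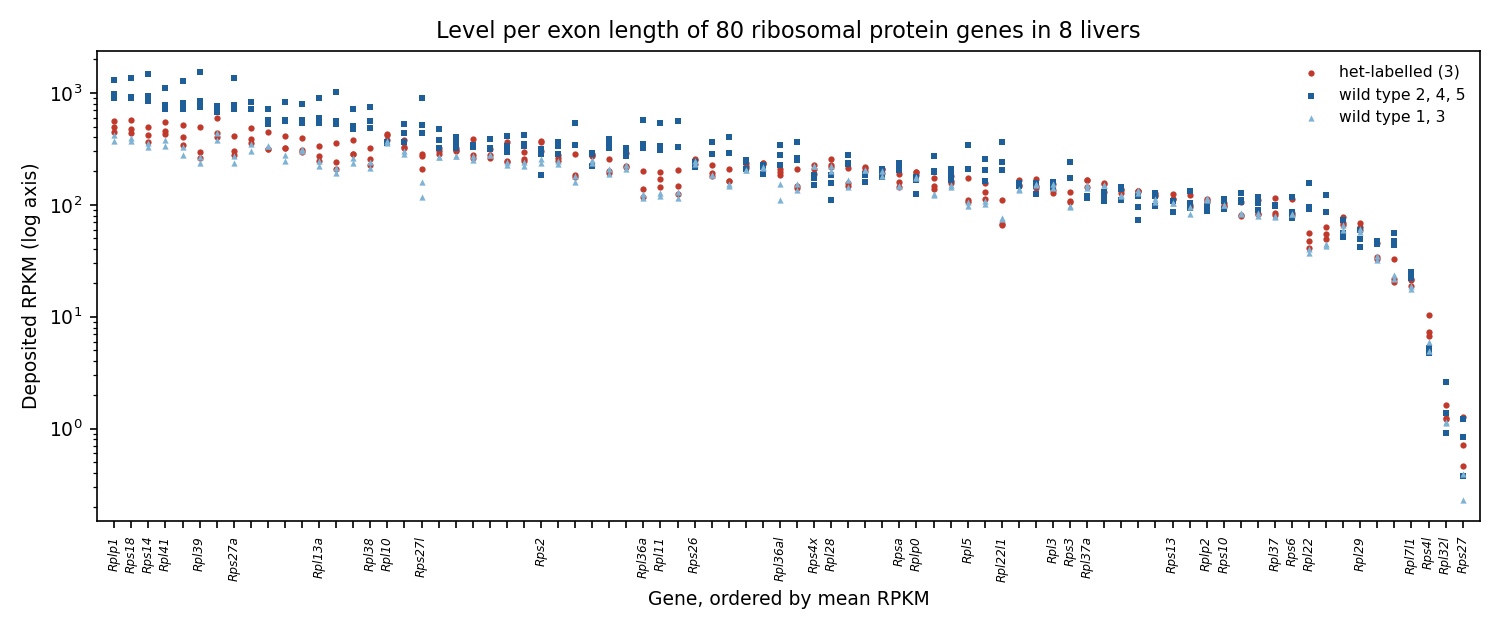
Deposited RPKM (log axis) of the tested ribosomal protein genes, ordered by mean level, with 1 point per library and some genes named on the axis. Levels ran from 0.69 for Rps27, which shares nearly its whole span with another entry, to 684.8 for Rplp1, and 74 of 80 members had a mean over 50 RPKM.

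Several members stood at or near 0 counts although their proteins belong to every ribosome. Rpl26 had 0 counts in all 8 libraries, Rpl30 had 9 counts in all, Rps27 had 64 and Rpl34 had 66. Each of these genes shares nearly its whole span with a second entry on the same strand. Gm15772 covers 99.2% of the span of Rpl26, Gm12191 covers 98.5% of that of Rpl30, Rpl34-ps1 covers 97.8% of that of Rpl34, and Rps27rt covers 99.9% of that of Rps27. The second entries had 0 counts too. The sources do not state how reads in shared spans were counted, and the part of the overlap in these low counts was not tested, so the levels of these 4 genes are uncertain. The tissue-specific paralogues were also near 0 without such an overlap. Rpl10l, a copy of Rpl10 known from testis, had 0 counts in all libraries, which allows up to 3 counts, or 0.12 to 0.171 CPM without scaling, in any of them. Rpl39l, the testis copy of Rpl39, had 9 counts in all, and Rpl3l, the copy of Rpl3 known from heart and skeletal muscle, had 6. These values left Rpl10l, Rpl26, Rpl30, Rpl34, Rpl39l and Rpl3l untested.

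Against all 5 wild-type libraries no ribosomal protein gene passed the test. In edgeR's quasi-likelihood test with Benjamini-Hochberg adjustment over all 14438 genes, 0 of 80 members were called, as were 0% of all genes, and the smallest adjusted p of a member was 0.259. At an unadjusted p under 0.05, 3 members were higher, beside 10.3% of all genes, and 0 were lower, beside 5.43%. DESeq2 called 0 members, beside 1.32% of all genes. The log2 fold change was negative in 51 members and positive in 29, with a median of -0.14, against 0.00 over all tested genes. The median lay between -0.27, without wild-type library 3, and -0.04, without wild-type library 5. Without wild-type library 3 the count of members lower at an unadjusted p was 17, beside 7.46% of all genes, and without wild-type library 1 it was 5, beside 6.33%. The count of members higher was 1 without wild-type library 2, wild-type library 3 or het-labelled library 1, beside 5.76%, 8.23% and 3.9% of all genes in these fits.

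The members with the smallest p on the higher side were Rps4l, Rpl37a and Rps2. Rps4l, at chr6:148354656-148355596 on mm10, had 10.3, 6.62 and 7.15 CPM in het-labelled libraries against 5.64, 5.25, 4.59, 4.94 and 4.58 CPM in wild-type libraries. Every het-labelled value lay above every wild-type value, and the log2 fold change was 0.68 (SE 0.19, adjusted p = 0.259) by edgeR. Its transcript was not in the annotation searched for shared stretches, and as a near copy of an abundant gene it is uncertain. Rps4l also overlaps Tmtc1 on the opposite strand, and the sources do not state the use of strand. Rps2, a protein near the mRNA entry of the small subunit, had 387, 311 and 379 CPM in het-labelled libraries against 257, 195, 229.9, 324 and 291 CPM in wild-type libraries. The lowest het-labelled value lay below wild-type library 4, and edgeR gave 0.47 (SE 0.20, adjusted p = 0.303). Rpl37a gave 0.33 (SE 0.13, adjusted p = 0.285), Rpl28 0.46 (SE 0.20, adjusted p = 0.319), Rps13 0.23 (SE 0.12, adjusted p = 0.354) and Rpl29 0.28 (SE 0.15, adjusted p = 0.357) in the same edgeR fit. In 10 members, among them Rpl10, Rpl28, Rpl29, Rpl37a, Rplp0, Rps13 and Rps4l, every het-labelled value lay above every wild-type value, 10 of 80 beside 7.54% of all genes, and in 0 members did every value lie below, beside 2.32%.

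On the lower side, the smallest p-values belonged to genes whose wild-type values were far apart. Rpl22l1, a paralogue of Rpl22 at chr3:28805508-28807424 on mm10, had 39.1, 63.9 and 38.5 CPM in het-labelled libraries against 42.1, 143, 41.2, 116 and 206 CPM in wild-type libraries. The het-labelled values lay close to wild-type libraries 1 and 3 and below wild-type libraries 2, 4 and 5, and edgeR gave -1.22 (SE 0.55, adjusted p = 0.322). Rps27a, at chr11:29545842-29548040, which is made as a fusion of ubiquitin with a small-subunit protein, had 239, 353 and 258 CPM in het-labelled libraries against 227, 682, 189, 598 and 1139 CPM in wild-type libraries, and edgeR gave -1.0 (SE 0.56, adjusted p = 0.392). Here every het-labelled value lay above wild-type libraries 1 and 3 and below wild-type libraries 2, 4 and 5. Rpl36a gave -0.95 (SE 0.53, adjusted p = 0.390), Rps14 -0.87 (SE 0.50, adjusted p = 0.400), Rpl13a -0.80 (SE 0.47, adjusted p = 0.405) and Rpl22 -0.79 (SE 0.47, adjusted p = 0.410) by edgeR. The standard errors of these 6 genes were 0.47 to 0.56, against 0.12 to 0.20 for the 6 named on the higher side.

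The spread had the same form across most of the family. With every gene centred on its own 8-library mean of log2 CPM, the median over the 80 members was -0.17, 0.09 and -0.15 in het-labelled libraries 1 to 3, and -0.27, 0.19, -0.35, 0.24 and 0.44 in wild-type libraries 1 to 5. The same median over all tested genes stayed between -0.06 and 0.04 in every library. Wild-type library 5 was highest and wild-type library 3 lowest. The members also differed most among themselves in wild-type library 5, where the SD over members of these centred values was 0.55, and least in het-labelled library 2, where it was 0.13.

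**Figure D3:**
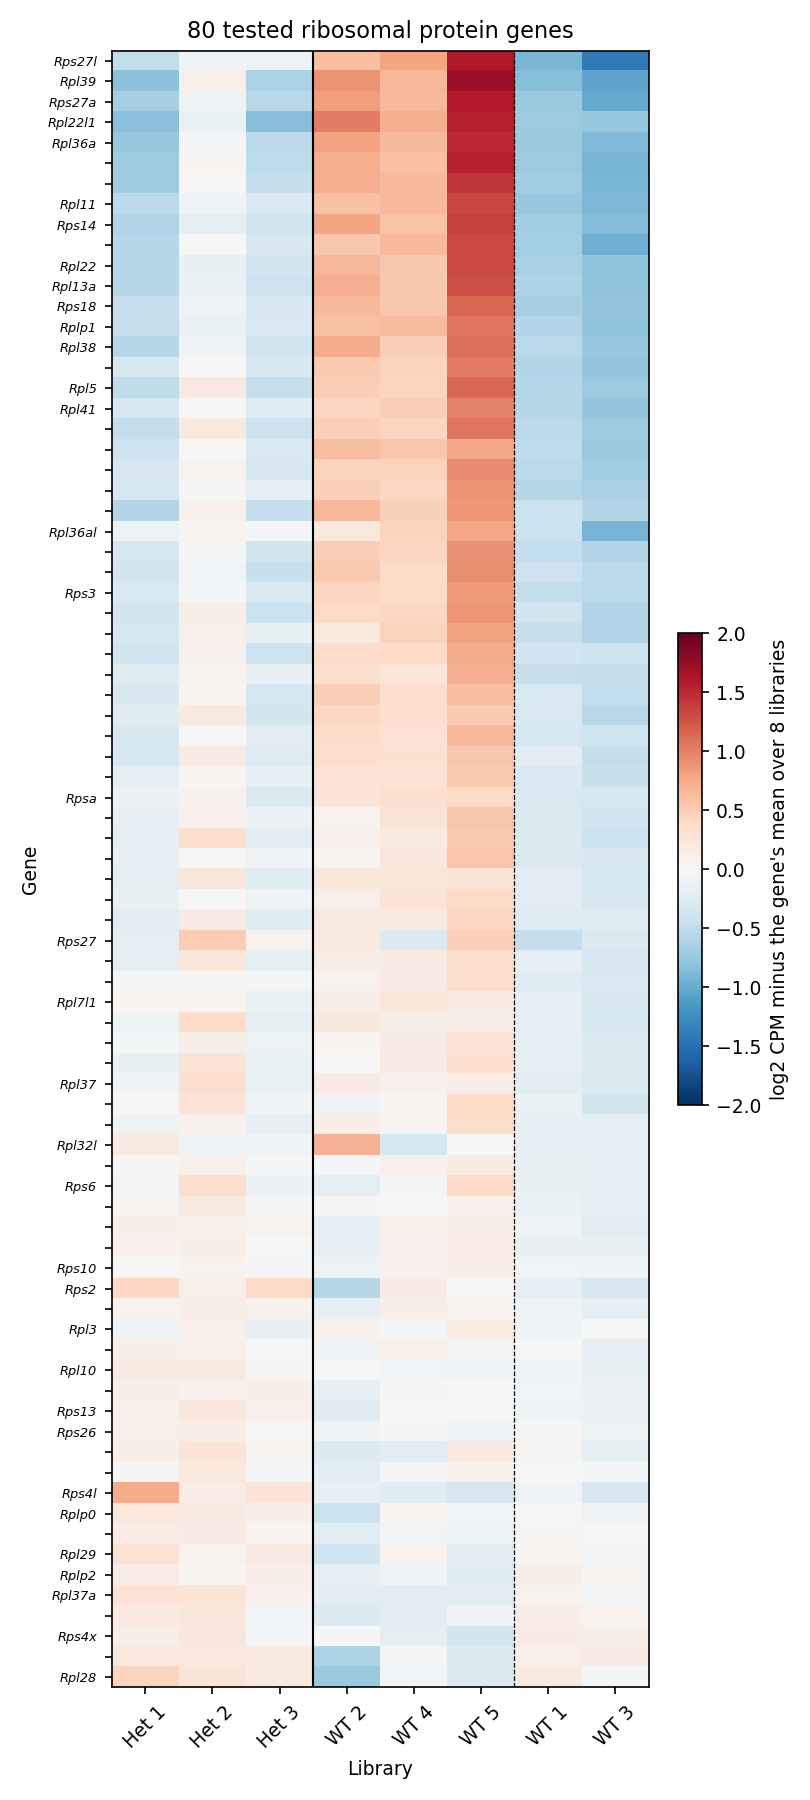
log2 CPM of the 80 tested ribosomal protein genes centred on each gene's own mean, het-labelled libraries first, with genes in rows and some genes named on the axis. The members' median was highest in wild-type library 5 (0.44) and lowest in wild-type library 3 (-0.35), and 13 of the 80 genes were lower in wild-type libraries 2, 4 and 5 than in libraries 1 and 3.

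Set against wild-type libraries 2, 4 and 5 alone, a large part of the family was lower in the het-labelled libraries. edgeR called 34 of 80 members lower at an adjusted p under 0.05, 19 of the large and 15 of the small subunit, which is 42.5% of members beside 10.5% of all 13922 genes tested there. It called 1 member higher, Rpl37a, beside 8.4% of all genes. The median log2 fold change of the members was -0.39, against 0.00 over all genes. Genotype and Rpph1 share cannot be told apart in this comparison. The calls depended on single libraries. Leaving out wild-type library 2 gave 14 lower calls, where 3.91% of all genes were called in either direction. Leaving out wild-type library 5, or het-labelled library 1, or het-labelled library 3, gave 0 calls, among members and over all genes. At an unadjusted p under 0.05, 36, 35 and 34 members were lower in those 3 fits, beside 13.3%, 12.7% and 14.3% of all genes, and 41 were with all 6 libraries, beside 18.7%.

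The largest of these differences were found in genes of both subunits. Rpl22l1 gave -1.76 (SE 0.28, adjusted p = 0.0283) and Rpl39, a small protein of the wall of the exit tunnel, gave -1.60 (SE 0.35, adjusted p = 0.0285) by edgeR against wild-type libraries 2, 4 and 5. Rpl39, at chrX:37082518-37085222, had 118, 223 and 134 CPM in het-labelled libraries against 115, 388, 99.6, 329.6 and 681 CPM in wild-type libraries 1 to 5. Wild-type libraries 1 and 3 lay below the lowest het-labelled value, and wild-type libraries 2, 4 and 5 lay above the highest. Rps27a gave -1.55 (SE 0.29, adjusted p = 0.0283), Rpl36a -1.49 (SE 0.28, adjusted p = 0.0283), Rps14 -1.38 (SE 0.24, adjusted p = 0.0283), Rpl13a -1.30 (SE 0.24, adjusted p = 0.0283), known from interferon-induced translational silencing, and Rpl22 -1.29 (SE 0.23, adjusted p = 0.0283) in the same edgeR fit. Rpl11 and Rpl5 form with a small ribosomal RNA the particle that binds Mdm2 when assembly is disturbed. By edgeR Rpl11 gave -1.24 (SE 0.24, adjusted p = 0.0283) and Rpl5 -1.0 (SE 0.27, adjusted p = 0.0427). Rplp1 gave -1.12 (SE 0.19, adjusted p = 0.0283), Rps18 -1.13 (SE 0.21, adjusted p = 0.0283), Rpl38, which in mice is needed for patterning of the skeleton, -1.18 (SE 0.21, adjusted p = 0.0283), and Rps3, at the mRNA entry, -0.82 (SE 0.18, adjusted p = 0.0285) by edgeR.

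Other members of known role did not pass in that comparison. The other stalk genes had positive values, with 0.26 (SE 0.16, adjusted p = 0.256) for Rplp0 and 0.22 (SE 0.11, adjusted p = 0.167) for Rplp2 by edgeR. Rps6, the main ribosomal target of the S6 kinases, had 123, 163 and 117 CPM in het-labelled libraries against 115, 113, 113, 124 and 166 CPM in wild-type libraries, and edgeR gave -0.04 (SE 0.20, adjusted p = 0.896). Only het-labelled library 2 and wild-type library 5 stood out among the 8 values of Rps6. Rpsa, the small-subunit protein also called laminin receptor, gave -0.47 (SE 0.16, adjusted p = 0.0699), Rpl3, near the site of peptide bond formation, -0.15 (SE 0.14, adjusted p = 0.443), and Rpl10, which joins the large subunit late, 0.13 (SE 0.13, adjusted p = 0.503) by edgeR. Rpl37 gave -0.11 (SE 0.16, adjusted p = 0.628) and Rps4x 0.25 (SE 0.15, adjusted p = 0.259) in the same edgeR fit. The 95% interval of the log2 fold change of Rpl3 ran from -0.47 to 0.16 and that of Rpl10 from -0.17 to 0.44, so differences within those bounds were not resolved.

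Set against wild-type libraries 1 and 3, whose Rpph1 share was like that of the het-labelled libraries, most members had positive values. The log2 fold change was positive in 75 of 79 tested members and negative in 4, with a median of 0.19, against 0.01 over all 14645 genes tested there. By edgeR 0 members were called, beside 0.143% of all genes, of which 0.0478% were lower and 0.0956% higher in het-labelled libraries. At an unadjusted p under 0.05, 6 were higher, beside 16.7% of all genes, and 0 were lower, beside 14.9%, so the share of members higher at that threshold was not above that of all genes. With library size alone as the scaling, the members' median was -0.12 and that of all genes -0.31. A scaling moves all genes of a library alike, so the members' place above all genes could not depend on this choice. DESeq2 called 3 members in this comparison, beside 16.4% of all genes, and edgeR called 3 without het-labelled library 2, beside 37.2%, so members were called at a lower share than all genes in both. The members' median was 0.09 without het-labelled library 2. The count higher at an unadjusted p was 2 without wild-type library 1, beside 12.3% of all genes, 1 without wild-type library 3, beside 5.45%, and 2 without het-labelled library 3, beside 10.5%. This comparison and the one against wild-type libraries 2, 4 and 5 share the het-labelled libraries, so their values stand side by side and are not independent.

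Rps27l, a paralogue of Rps27 at chr9:66946086-66949522, had the smallest p in that comparison. It had 149.7, 201 and 195 CPM in het-labelled libraries against 111, 320.3, 78.6, 363 and 639.7 CPM in wild-type libraries 1 to 5. Every het-labelled value lay above wild-type libraries 1 and 3 and below wild-type libraries 2, 4 and 5. edgeR gave a log2 fold change of 0.88 (SE 0.22, adjusted p = 0.0777) against wild-type libraries 1 and 3, which did not pass, and -1.32 (SE 0.28, adjusted p = 0.0283) against wild-type libraries 2, 4 and 5. The other members with an unadjusted p under 0.05 against wild-type libraries 1 and 3 were Rpl36al, with 0.58 (SE 0.17, adjusted p = 0.0934), Rps2, with 0.50 (SE 0.16, adjusted p = 0.108), Rpl11, with 0.48 (SE 0.18, adjusted p = 0.131), Rpl41, with 0.43 (SE 0.17, adjusted p = 0.144), and Rpl15, with 0.37 (SE 0.14, adjusted p = 0.141) by edgeR. The genes furthest below wild-type libraries 2, 4 and 5 stood slightly above wild-type libraries 1 and 3, with 0.12 (SE 0.25, adjusted p = 0.767) for Rpl22l1, 0.50 (SE 0.30, adjusted p = 0.293) for Rpl39 and 0.39 (SE 0.23, adjusted p = 0.277) for Rps27a in the edgeR fit.

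**Figure D4:**
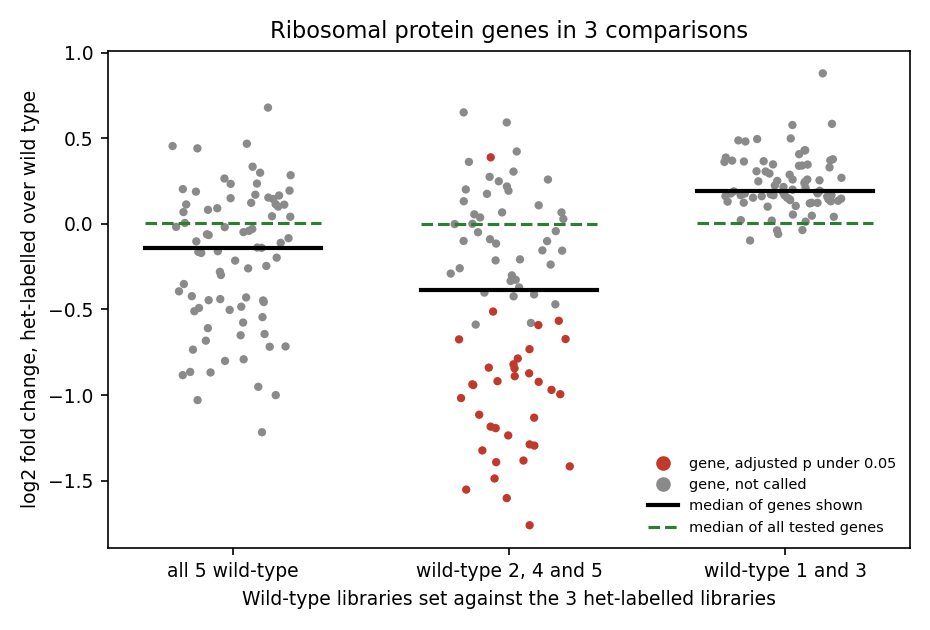
log2 fold change of each tested ribosomal protein gene, het-labelled over wild type, against all 5 wild-type libraries, libraries 2, 4 and 5, and libraries 1 and 3. The medians were -0.14, -0.39 and 0.19.

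Within the wild type, most members were higher in libraries 2, 4 and 5 than in libraries 1 and 3. The difference of the means of log2(CPM + 0.5), libraries 2, 4 and 5 minus libraries 1 and 3, had a median of 0.56 over the 80 members, against -0.05 over all tested genes, and it is a description with no test, since libraries were set apart by a measured share. It was above 0 in 67 members, where 47% of all genes were above 0, and over 1 in 29 members, where 7.68% of all genes were, while 0 members and 6.37% of all genes lay under -1. In 42 members wild-type libraries 2, 4 and 5 all lay above the other 5 libraries, beside 16.2% of all genes, and in 6 they all lay below, beside 15.4%. The median was 0.48 in the 47 tested genes of the large subunit and 0.65 in the 33 of the small subunit.

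Single members differed widely in this value. The difference, libraries 2, 4 and 5 minus libraries 1 and 3, was 2.17 for Rps27l, 2.04 for Rpl39, 1.90 for Rps27a and 1.84 for Rpl22l1 on the log2 scale. These 4 genes also had the largest coefficients of variation of CPM over the 8 libraries, 71.0% to 77.0%, against a median of 23.5% over members. At the other end stood Rpl28, at chr7:4792965-4794547, with 58.5, 94.0 and 80.4 CPM in wild-type libraries 2, 4 and 5 against 112 and 96.5 CPM in wild-type libraries 1 and 3, a difference of -0.44. Rpl6, with 97.5, 152 and 123 CPM in libraries 2, 4 and 5 against 159 and 167 CPM in libraries 1 and 3, had a difference of -0.42. Rpl28, Rpl37a, Rpl6 and Rplp2 were among the 6 members whose 3 values in wild-type libraries 2, 4 and 5 lay below the other 5 libraries. Rps4x, on the X chromosome, also had a negative difference, -0.34, with 212, 229 and 191 CPM in het-labelled libraries against 219, 193, 213, 172 and 149 CPM in wild-type libraries 1 to 5.

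Other members barely varied. Rps26, which lines the mRNA exit of the small subunit and lies at chr10:128624529-128626506, had 118, 119 and 109 CPM in het-labelled libraries against 111, 104, 103, 111 and 104 CPM in wild-type libraries, with a coefficient of variation of 5.70%. Rps10, which is ubiquitylated on stalled ribosomes, had 60.7, 63.9 and 59.3 CPM in het-labelled libraries against 58.6, 57.1, 57.2, 64.7 and 67.6 CPM in wild-type libraries, with 6.30%. The groups overlapped in both genes. Of the 80 members, 35 had a coefficient of variation of at most 20%, 18 lay between 20 and 40%, 19 between 40 and 60%, and 8 above.

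Paralogue pairs were compared within the same libraries. Rpl22 gave differences like those of Rpl22l1, with 107, 145 and 123 CPM in het-labelled libraries against 102, 254, 91.7, 233 and 400.0 CPM in wild-type libraries. Per length Rpl22l1 stood above it, at 67.3, 111 and 66.3 RPKM in het-labelled and 75.2, 242, 75.6, 205 and 361 RPKM in wild-type libraries, where Rpl22 had 41.1, 55.9 and 47.1 RPKM in het-labelled and 40.6, 95.6, 37.4, 91.2 and 156 RPKM in wild-type libraries. Rpl36a had 60.3, 101 and 71.1 CPM in het-labelled libraries against 61.4, 181, 55.3, 162 and 289 CPM in wild-type libraries, while its paralogue Rpl36al had 99.7, 111 and 105 CPM in het-labelled libraries against 79.3, 124, 55.8, 146 and 182 CPM in wild-type libraries. In wild-type libraries 2, 4 and 5 minus libraries 1 and 3 the log2 difference was 1.80 for Rpl36a and 1.16 for Rpl36al, and 0.44 for Rpl7l1 against 1.28 for Rpl7. Each of these genes shares stretches of sequence with transcripts of other genes. Of the 84 members with a GENCODE transcript, the share of 50-base stretches that also occur in transcripts of another gene ran from 0 to 98.6%, with a median of 54.1%. Rpl39l and Rpl3l were among those with none. The sources used here do not say how reads that match several genes were counted, so single values are uncertain where the share is high, as in Rps27 with 98.6% and Rpl35 with 95.1%.

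Features that the gene name rule did not use were set beside the wild-type difference. The 14 members with the TOP letters shown above had a median of 0.70 (libraries 2, 4 and 5 minus libraries 1 and 3), and the 46 tested members with a promoter entry but without the letters had 0.55. The windows printed above stand in the order of this difference, with 1.5 for Rps18 and 1.44 for Rpl38 at the top and -0.24 for Rplp2 and -0.44 for Rpl28 at the bottom, so members with these letters lay at both ends. The 22 members whose span holds a small nucleolar RNA entry had a median of 0.45, and the 58 tested members without one had 0.69. Of the 4 members on the X chromosome, Rpl39 and Rpl36a were far higher in wild-type libraries 2, 4 and 5, Rpl10 differed by 0.06 and Rps4x by -0.34. Across members, Spearman's rho of the difference was -0.05 with exon length (80 members), -0.22 with GC content (78 members), -0.01 with the share of 50-base stretches found in other genes (78 members) and 0.52 with mean RPKM (80 members), which comes from the same libraries as the difference. Members are not independent of each other, and these values have no test.

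Exon length marks the members apart from most genes. Its median was 740 bases in members, with a range of 390 to 5134, against 3029 bases in all tested genes. Short genes as a whole were higher in wild-type libraries 2, 4 and 5 than in libraries 1 and 3. The median difference of all tested genes was 0.69 on the log2 scale up to 500 bases, 0.51 from 500 to 1000, 0.11 from 1000 to 2000, -0.08 from 2000 to 4000 and -0.22 above. The members' medians in the first 3 classes were 1.29 (13 members), 0.51 (44 members) and 0.50 (18 members). The 4 members from 2000 to 4000 bases had 0.93 and the 1 member above 4000 bases had 1.17. Members thus stood above all genes of their length in every class but that of 500 to 1000 bases, where the medians were alike. The part of length in the differences was not tested.

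**Figure D5:**
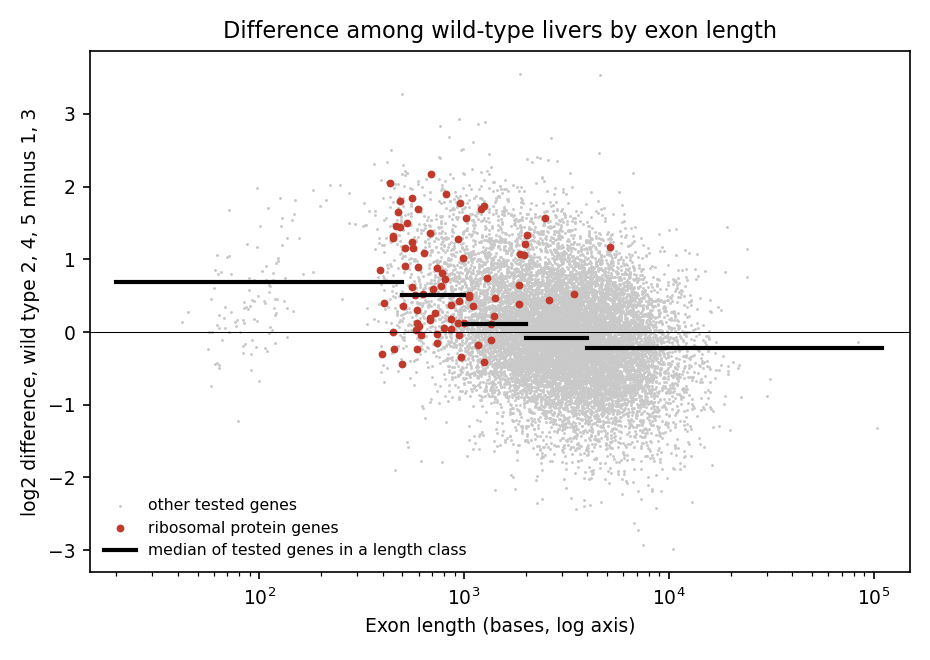
Exon length (bases, log axis) against the log2 difference of CPM + 0.5, wild-type libraries 2, 4 and 5 minus libraries 1 and 3, for ribosomal protein genes, with lines for the median of all tested genes in 5 length classes. The median of all genes was 0.69 in the shortest class and -0.22 in the longest.

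Genes that work with the ribosomal proteins were set beside them, as lists chosen with earlier results of these data known. Against all 5 wild-type libraries edgeR called 0 genes of any list. Of the subunits left out by the name rule, Rack1, the signalling scaffold of the small subunit, gave -0.28 (SE 0.22, adjusted p = 0.516) against all wild-type libraries and -0.55 (SE 0.15, adjusted p = 0.0392) against libraries 2, 4 and 5 by edgeR. Elongation and initiation factors and other mRNAs with a TOP tract, 21 genes, had a median of 0.19 against all wild-type libraries. Before adjustment, 2 of the 21 were higher at 0.05, beside 10.3% of all genes, and 0 were lower, beside 5.43%. Their median difference within the wild type, libraries 2, 4 and 5 minus libraries 1 and 3, was -0.08, against 0.56 in the ribosomal protein genes. Eef1g, a subunit of the elongation factor that reloads Eef1a, gave 0.45 (SE 0.18, adjusted p = 0.293) and Eif3l, a subunit of initiation factor eIF3, 0.39 (SE 0.15, adjusted p = 0.278) by edgeR.

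Genes that make ribosomes or set their rate of production had medians below 0 in the wild-type difference. The 28 genes of ribosome biogenesis had a median of 0.17 against all wild-type libraries and -0.22 within the wild type, libraries 2, 4 and 5 minus libraries 1 and 3. Nolc1, a nucleolar chaperone of small nucleolar RNPs, gave 0.59 (SE 0.24, adjusted p = 0.291) and Bysl, which helps to mature the small subunit, 0.49 (SE 0.21, adjusted p = 0.307) by edgeR. The 15 genes of mTORC1 and MYC control had a median of 0.28 against all wild-type libraries and -0.19 within the wild type. Eif4ebp2, a repressor of cap-dependent translation, gave 0.73 (SE 0.32, adjusted p = 0.312) and Rps6kb2, an S6 kinase, 0.55 (SE 0.21, adjusted p = 0.279) by edgeR. Against wild-type libraries 2, 4 and 5, edgeR called 2 biogenesis genes higher and 1 lower, and 3 genes of mTORC1 and MYC control higher and 1 lower, beside 8.4% of all genes higher and 10.5% lower.

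Hosts of small nucleolar RNAs and mitochondrial genes had medians above 0 in it. The 7 noncoding hosts of small nucleolar RNAs had a median difference of 1.24 within the wild type, libraries 2, 4 and 5 minus libraries 1 and 3. Against wild-type libraries 2, 4 and 5, edgeR called 4 of the 7 lower in het-labelled libraries, beside 10.5% of all genes. Without wild-type library 5, het-labelled library 1 or het-labelled library 3, that comparison called 0 of all genes. Snhg1 had 7.65, 14.1 and 9.91 CPM in het-labelled libraries against 12.5, 60.8, 13.3, 18.2 and 72.1 CPM in wild-type libraries, and Snhg6 gave -1.38 (SE 0.25, adjusted p = 0.0283) against libraries 2, 4 and 5 by edgeR. The 78 mitochondrial ribosomal protein genes had a median of 0.40 within the wild type and the 70 tested nuclear genes of the respiratory chain 1.04. Against wild-type libraries 1 and 3, 48 of the 78 and 63 of the 70 were higher at an unadjusted p under 0.05, beside 16.7% of all genes, with medians of 0.41 and 0.59, and edgeR called 0 of either list. Uqcrc1, a core protein of complex III, had 159.6, 114 and 160.4 CPM in het-labelled libraries against 114, 76.6, 94.8, 97.2 and 91.3 CPM in wild-type libraries. Every het-labelled value lay above every wild-type value, and edgeR gave 0.61 (SE 0.17, adjusted p = 0.259) against all 5 wild-type libraries, beside 0.48 (SE 0.14, adjusted p = 0.259) for Cox5b, 0.64 (SE 0.18, adjusted p = 0.259) for Mrps7 and 0.56 (SE 0.14, adjusted p = 0.259) for Mrpl49. Against wild-type libraries 1 and 3, 6 of 79 cytosolic ribosomal protein genes were higher at an unadjusted p under 0.05.

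Summed levels of cell type markers also differed between the sets of libraries. All 7 T and NK cell markers were tested, and their summed level was 5.81, 11.9 and 5.48 CPM in het-labelled libraries against 28.6, 12.8, 23.9, 6.43 and 8.79 CPM in wild-type libraries 1 to 5, so wild-type libraries 1 and 3 were highest. The 5 B cell markers summed to 182, 381 and 150.5 CPM in het-labelled libraries against 358, 255, 453, 199 and 194 CPM in wild-type libraries. The 5 bile duct markers summed to 146, 735 and 157 CPM in het-labelled libraries against 468, 828, 869, 404 and 453 CPM in wild-type libraries, with het-labelled library 2 near the wild-type values. The 8 macrophage and Kupffer cell markers summed to 416, 610.4 and 448 CPM in het-labelled libraries against 504, 493, 419, 741 and 936 CPM in wild-type libraries. The 5 stellate cell markers summed to 552 to 1329 CPM in het-labelled libraries against 953 to 1474 CPM in wild-type libraries, and the 4 endothelial markers to 245 to 356 CPM in het-labelled libraries against 227 to 293 CPM in wild-type libraries. No marker of these lists was at 0 in every library. A sum follows its most abundant markers and can hide markers that go opposite ways. In wild-type libraries 2, 4 and 5 minus libraries 1 and 3, 4 macrophage and Kupffer cell markers were above 0 and 4 below (-0.63 to 2.12). Of the stellate markers 2 were above and 3 below (-2.23 to 0.97), of the B cell markers 1 and 4, and of the endothelial markers 1 and 3. All T and NK cell and all bile duct markers were below 0. The part of these cell types in the results on ribosomal protein genes was not tested.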

How the data were processed

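Liver RNA of 8 mice was sequenced after KAPA mRNA HyperPrep library preparation (Roche), per the labels' protocols, which also give storage in RNAlater and DNase treatment. The submitters' processing notes name the genome build mm10 and, as tools, HTSeq, STAR and bcl2fastq (2.18.0.12). The sources used here do not state the annotation, the use of strand or the treatment of reads that match several genes, so overlapping, antisense and near-identical genes cannot be separated. The authors deposited whole-number counts per gene, not normalized, and RPKM values, which equalled each deposited count over its gene's exon length and over a library constant that came to 0.888 to 1.25 times the count total. Unused sample columns numbered 0.

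Genes were kept with filterByExpr (minimum count 10, minimum total 15), scaled by TMM and tested with edgeR's two-sided quasi-likelihood test with robust estimation, adjusted over all genes tested at 0.05. The SE of a log2 fold change is its size over the square root of F. Intervals are at 95%. Replicates were numbered in accession order within the genotype label. Replicate pairs differed beyond sampling noise, with a chi-square per degree of freedom of at least 22.9 in wild-type and 36.0 in het-labelled pairs. Members and gene lists were chosen with earlier results of these data known. Lists numbered 15, and 3 of their symbols were not in the table. Named genes were the 6 members with the smallest p in each direction, the 4 highest and 4 lowest by RPKM, the 4 most and 3 least variable, 25 fixed members and 2 genes per further list. Of the genes this rule names, 2 are not reported here. Rpl6, Rpl7, Rpl15 and Rpl35 were named after their values were seen.

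Shared stretches were 50-base sequences found in GENCODE M21 transcripts of another gene. Promoter windows are from RefSeq on GRCm38.p6. The fits were tested on simulated data before use. Alternatives were other scalings (RLE, library size alone, TMM without members), other filters (none, or a mean CPM of at least 1), other tests (DESeq2, limma-voom, edgeR without robust estimation, and limma on log2 of the RPKM plus 0.1 or 1), Rpph1 and Rn45s left out, a term for high Rpph1 share, other member lists and each library left out. Work was done in Python 3.11.15 with pandas 2.3.3 and matplotlib 3.10.9 and in R 4.3.3 with DESeq2 1.42.0, limma 3.58.1 and edgeR 4.0.16.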

Additional observations from a re-analysis of the deposited data

Results flagged for a closer look

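Within the 5 wild-type libraries, 48 genes and the share of counts held by the ribosomal protein genes were examined for a single library far from the rest, by the gap to the nearest value over the whole range (limit 0.71 for 5 values). Chance sets off about 1 group in 20, and 3 of the 49 passed. Rps6, the ribosomal target of the S6 kinases, gave 0.795 because wild-type library 5 had 166 CPM where the other wild-type libraries had 113 to 124 CPM. Rpl32l, which lies within Map7, gave 0.733 because wild-type library 2 had 1.65 CPM where the others had 0.55 to 0.84 CPM. Rplp0, a stalk protein, gave 0.731 because wild-type library 2 had 179.8 CPM where the others had 229 to 248 CPM.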

How the results depend on the processing

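Members passing the adjusted threshold against all 5 wild-type libraries stayed at 0 under every alternative that kept all 5 as 1 group. The same held in the fits that left out 1 library. Members passing numbered 35 against libraries 2, 4 and 5 alone, beside 18.9% of all genes. Members higher at an unadjusted p under 0.05 numbered 1 with RLE scaling, 0 with library size alone, 7 with a term for high Rpph1 share and 6 against wild-type libraries 1 and 3, beside 7.95%, 2.96%, 20.1% and 16.7% of all genes. Members lower numbered 1 with RLE scaling, 2 with library size alone, 1 with no filter, 2 with DESeq2 and 41 against wild-type libraries 2, 4 and 5, beside 6.74%, 8.3%, 5.02%, 8.9% and 18.7% of all genes. The members' median turned positive, 0.25 with the Rpph1 term and 0.19 against wild-type libraries 1 and 3. The term marks wild-type libraries 2, 4 and 5, so its genotype value also comes from wild-type libraries 1 and 3. Both settings are thus the same contrast and not separate support. With library size alone the median of all genes moved to -0.18. DESeq2 called 3 members against wild-type libraries 1 and 3, beside 16.4% of all genes. The member share differed by -1.08 percentage points, het-labelled minus wild type, on summed RPKM, and by -0.45 on counts. The bases differ, with wild-type means of 4.77% on summed RPKM and 1.76% on counts, so the sizes of these differences are not comparable. Leaving out 1 library gave 0 to 0 members called, 1 to 3 higher, 0 to 17 lower and a median of -0.27 to -0.04. Against wild-type libraries 1 and 3 it gave 0 to 3 calls, and against libraries 2, 4 and 5 it gave 0 to 41. The 3 and the 41 calls both came without het-labelled library 2, where 37.2% and 29.9% of all genes were called. No paired analysis was possible because the labels give no replicate numbers shared between genotypes. At a depth of 17508221 counts or more, 6 members did not pass the filter on low counts.

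The fits with the term for high Rpph1 share and against wild-type libraries 1 and 3 estimate the same contrast, so sign changes found in both are not independent. Of the named genes, log2 fold changes changed sign in 63 fits that kept all libraries of the groups compared (smallest adjusted p among them 0.0777), and the cause was not tested. With the term for high Rpph1 share they were Rpl22l1 0.18, Rpl36a 0.41, Rps27a 0.45, Rps14 0.39, Rpl13a 0.35, Rpl22 0.37, Rpl41 0.49, Rps18 0.44, Rplp1 0.40, Rpl32l 0.33, Rpl7l1 0.25, Rps27l 0.94, Rpl39 0.56, Rpsa 0.23, Rps3 0.32, Rpl5 0.42, Rpl11 0.54, Rps4x -0.03564, Rpl3 0.002546, Rpl36al 0.64, Rpl38 0.32, Rack1 0.14 and Snhg6 0.32. Against wild-type libraries 1 and 3 alone they were Rpl22l1 0.12, Rpl36a 0.35, Rps27a 0.39, Rps14 0.33, Rpl13a 0.29, Rpl22 0.31, Rpl41 0.43, Rps18 0.38, Rplp1 0.34, Rpl32l 0.27, Rpl7l1 0.19, Rps27l 0.88, Rpl39 0.50, Rpsa 0.17, Rplp2 -0.03563, Rps3 0.26, Rpl5 0.37, Rpl11 0.48, Rps4x -0.09691, Rpl36al 0.58, Rpl38 0.26, Rack1 0.07493 and Snhg6 0.26. Against wild-type libraries 2, 4 and 5 alone they were Rps27 -0.04853, Rps10 -0.08932, Rps6 -0.04207 and Rpl37 -0.11. With library size alone they were Rps26 -0.06995, Rps10 -0.17, Rplp2 -0.03961, Rps6 -0.05295, Rps4x -0.04687 and Rpl37 -0.076. limma on log2(RPKM + 0.1) gave Rpl32l 0.01255 and Rps10 -0.02255 and limma-voom gave Rpl32l 0.06601. Rps10 alone changed sign with RLE scaling at -0.04305, a mean of at least 1 CPM at -0.009172, DESeq2 at -0.04244 and limma on log2(RPKM + 1) at -0.02238. With 1 library left out, 6 genes changed sign, within -0.20 to 0.26 for Rpl32l, -0.15 to 0.03276 for Rpl7l1, -0.06237 to 0.04583 for Rps10, -0.06241 to 0.21 for Rps6, -0.38 to 0.05506 for Rpl36al and -0.09092 to 0.16 for Rpl37. Against wild-type libraries 2, 4 and 5 alone, 24 named genes passed with the sign they had against all 5, beside 18.9% of all genes called in either direction. The named genes were partly chosen by p and variation in these libraries, and both fits share libraries, so the shared sign is no separate support. Without wild-type library 5, het-labelled library 1 or het-labelled library 3, 0 of all genes were called in that comparison.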
